A study of Mus musculus with 2 samples.

Results

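The genes described here act in the removal of poly(A) tails from maternal mRNA and in its decay. They are 10 genes chosen by symbol from what their proteins do, without use of their measured values: 4 subunits of the CCR4-NOT complex (Cnot1, Cnot6l, Cnot7, Cnot8), 2 adaptors that bring the complex to mRNA (Btg4, Zfp36l2), a poly(A)-binding protein of the oocyte (Pabpc1l), 2 decapping proteins (Dcp1a, Dcp2) and a 5′ exonuclease (Xrn1). Earlier results of these data were known when the genes were chosen. All 10 matched an Ensembl gene among the 36227 in the table, and all 10 were among the 18017 genes with counts. Of these, 7 reached 10 CPM (counts scaled to a common library size) in at least 1 library and are called expressed here, as were 5714 genes in all.

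A mouse oocyte stops transcription when it is full grown and then lives on stored mRNA. During maturation to metaphase II, and again after fertilization, this store is cleared. BTG4 tethers the CCR4-NOT deadenylase to mRNA, the tail is shortened, and decapping and exonuclease digestion follow. Several mRNAs of the clearing machinery are themselves stored untranslated in the immature oocyte and are translated only as it matures, under the control of a cytoplasmic polyadenylation element near the 3′ end.

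The study compared metaphase II oocytes from 2 groups of ICR mice, an outbred stock, at a maternal age of 16 weeks. Mothers of both groups were reared in ordinary housing and were obese by 12 weeks. The slimming mothers then spent 4 weeks in EE cages, labelled as slimming induced by an enriched environment. The control mothers stayed in ordinary cages for those 4 weeks and are labelled as fed a standard diet. From each of 3 mothers per group, 3 naturally ovulated oocytes were taken, and the 9 oocytes of a group were pooled and sequenced as 1 library. With 1 library per group there is no spread between mothers, the groups could not be tested, and none of the differences below has a replicate check. In a pool, less mRNA in each oocyte and fewer oocytes with that mRNA cannot be told apart. The cDNA was primed on the poly(A) tail, so less mRNA and mRNA with shorter tails cannot be told apart either.

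The slimming library held 20947962 counts and the control library 20242289. All 10 oocyte markers were present in both, from 180 CPM upwards in slimming and 159 CPM upwards in control oocytes, with Gdf9, the oocyte growth factor, at 44674 and 45613 CPM. Zp3, Zp1 and Zp2, named after their values were seen, were higher in the slimming library (log2 1.03, 0.94 and 0.81). Zp3 had 2450 CPM in slimming and 1172 CPM in control oocytes. The other oocyte markers had log2 ratios from -0.12 (H1foo) to 0.25 (Bmp15). Markers of cumulus and granulosa cells summed to 41.3 CPM in slimming and 57.0 CPM in control oocytes, mostly Cyp19a1 (aromatase). Without Cyp19a1 the sums were 6.78 and 17.8 CPM. Of these 14 markers, 10 were at 0 in slimming and 7 in control oocytes, and the 7, among them Fshr, Lhcgr and Amh, were at 0 in both. Immune markers summed to 27.6 and 47.7 CPM, led by H2-Aa, with 8 of 13 at 0 in slimming and 0 of 13 at 0 in control oocytes. Oviduct markers summed to 246 CPM in each, nearly all Cdh1. The other oviduct markers summed to 6.45 CPM in slimming and 13.1 CPM in control oocytes, with 4 and 1 of 9 at 0. Sperm markers summed to 22.2 and 23.7 CPM, led by Prm2, while Prm1, Tnp1 and Tnp2 were at 0 in both. Red blood cell markers (led by Epb42) and 2-cell embryo markers (led by Eif1a) summed to at most 1.24 CPM in each library. The part of these cells in the values below was not tested.

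The motif of the cytoplasmic polyadenylation element was looked for first, because it marks the stored mRNAs that are translated on maturation. The letters TTTTAT or TTTTAAT were searched on the mRNA strand in the last 150 bases of the 3′ UTR, using the longest coding transcript with a consensus coding sequence in GENCODE vM21 (build GRCm38, as for all coordinates here, while the counts were made on mm9). A complete 3′ end was annotated for 9 of the 10 genes (the annotated end of Cnot8 is incomplete), and 4 of these 9 hold the element: Btg4, Dcp1a, Cnot7 and Cnot1. In the sequences here, each from the 3′ UTR of its gene and within a single exon, the element is in capitals, as is the polyadenylation signal (AATAAA or ATTAAA) where it falls within the 30 bases shown.
Btg4, chr9:51119809-51119838, plus strand: TTTTATgtctttttaaaagtttgatttaca
Btg4, chr9:51119760-51119789, plus strand: TTTTATaaatctgttaaaagcttggtggaa
Dcp1a, chr14:30527021-30527050, plus strand: TTTTAATAAAatttcaaaaccaagttttag
Dcp1a, chr14:30526997-30527026, plus strand: TTTTATatgtttgcaaatatatttttttaa
Cnot7, chr8:40493036-40493055, minus strand: TTTTATatcAATAAAaatac
Cnot1, chr8:95719492-95719521, minus strand: TTTTATatatgtgagtacactgatgctgtc

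The elements of Btg4 start 67 and 116 bases before the annotated end. Those of Dcp1a start 43 and 67 bases before it, with another at 140, and the one at 43 overlaps the polyadenylation signal. In Cnot7 an element starts 9 bases before the signal and 20 bases before the end, with others at 108 and 113 bases. In Cnot1 the element lies 64 bases before the end. The ends of Btg4 and Cnot1 used here hold no polyadenylation signal (AATAAA or ATTAAA) in their last 50 bases. The match depends on which end is used. Of 4 annotated ends of Cnot7 the element lies near 1, and of 3 ends of Btg4 near 2. The Cnot7 ends without it lie close together, at 40492540, 40492542 and 40492547 on chr8. Cnot6l, with 3 annotated ends, and Dcp2, Zfp36l2 and Pabpc1l, with 1 each, hold no such letters in these windows. Xrn1 holds none near the end of its longest transcript and holds the element near 2 of 3 annotated ends.

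Among all expressed genes with a complete end, 1551 of 5328 (29.1%) hold the element in the same window, and 3 of 6 such members do. The share of genes with the element was 27.9% (548 of 1968) between 10 and 30 CPM, 28.4% between 30 and 100 CPM, 30.9% between 100 and 300 CPM, 34.0% between 300 and 1000 CPM and 42.1% (53 of 126) from 1000 CPM upwards. Btg4 lies in the last of these bands, and Dcp1a and Cnot7 in the one before. Genes are not independent replicates. The median 3′ UTR also changed over the bands, at 1156, 1221, 1264, 979 and 891 bases from the lowest to the highest. Levels rest on priming at the tail, and the part of tail length in this rise was not tested. Between the libraries, genes with the element had a median log2 ratio of -0.03 and genes without it 0.03, and 1.55% against 2.83% were higher by 2-fold or more in slimming oocytes, 1.35% against 2.07% lower.

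**Figure D1:**
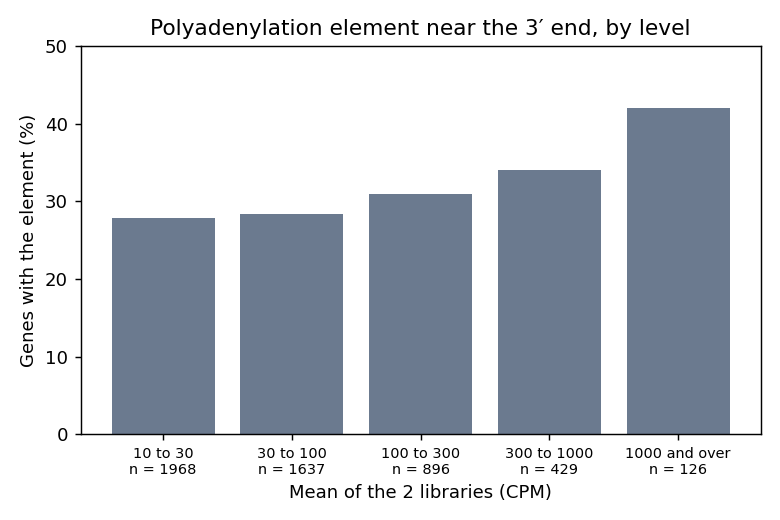
Share of expressed genes, in percent, whose last 150 bases hold the cytoplasmic polyadenylation element, by mean level of the gene over the 2 libraries in CPM, with the number of genes in each group. The bars run from 27.9% in the lowest to 42.1% in the highest band.

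None of the 7 expressed members was 2-fold apart between the libraries. Higher by 2-fold or more in slimming oocytes were 0 of 7, where 2.73% of all expressed genes were, and lower by as much were 0 of 7, against 1.94%. At 1.5-fold the counts were again 0 of 7 higher and 0 of 7 lower, against 10.3% and 7.16% of expressed genes. Their log2 ratios of slimming over control ran from -0.37 (Btg4) to 0.25 (Dcp2), with a median of 0.04 beside 0.02 for all expressed genes. The counting interval excluded equal levels for 3 members on the higher side (Cnot7, Cnot8, Dcp2) and 3 on the lower (Btg4, Cnot6l, Dcp1a), where it did so for 37.7% and 35.1% of expressed genes. That interval (95%, exact) covers counting error only.

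**Figure D2:**
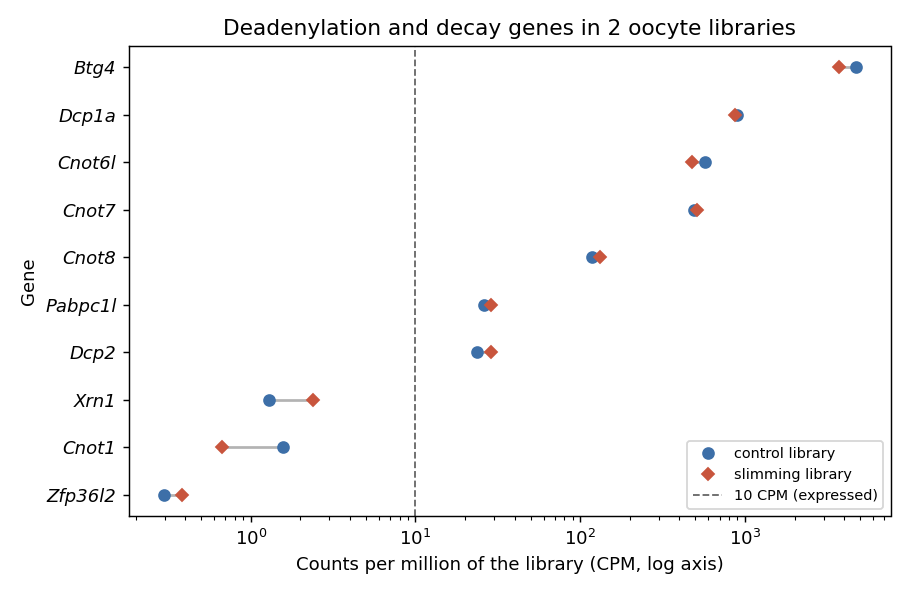
Level of each of the 10 genes in CPM on a log axis, with 1 point for the control and 1 for the slimming library and a dashed line at 10 CPM. Btg4 stands highest at 3721 and 4707 CPM, and Xrn1, Cnot1 and Zfp36l2 lie at or under 2.39 CPM in both libraries.

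The adaptor Btg4 (ENSMUSG00000032056, chr9:51060901-51119875 on the plus strand of GRCm38) was by far the most abundant of the 10. It had 77937 counts in slimming and 95275 in control oocytes, or 3721 and 4707 CPM, and ranked 21st in CPM among the 5714 expressed genes and 17th per kilobase of transcript. The slimming library was the lower, by 1.29-fold (log2 -0.37, interval -0.38 to -0.36). Of the 136 genes with a mean of 1000 CPM or more, 27.2% lay at least as far from their median. Btg4 alone held 64.5% of the counts of the 10 genes in slimming and 68.8% in control oocytes. Its short transcript, of 1486 bases, belongs to the shortest of 5 equal groups of expressed genes by length, whose median log2 ratio was 0.18, while that of the longest was -0.09. With this length trend removed the log2 ratio of Btg4 was -0.49.

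Btg4 stood alone in its family. The other BTG and TOB proteins also bind the CCR4-NOT deadenylases, and per kilobase Btg4, at 2504 RPKM (CPM per kilobase of transcript) in slimming and 3167 RPKM in control oocytes, was 558 times Btg2 in slimming and 703 times in control oocytes, the most abundant of the others. Btg1 had 231 and 155 counts, Btg2 258 and 250, Tob2 368 and 334, Tob1 19 and 14, and Btg3 6 and 0. Of this list, 3 of 5 were expressed. Of these 3, 0 were 1.5-fold apart, where 10.3% of all expressed genes were higher and 7.16% lower by as much. Among these 3, Btg1 had the largest log2 ratio, 0.49 (interval 0.20 to 0.80).

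Zfp36l2 (ENSMUSG00000045817, chr17:84183931-84187947, minus strand), which binds AU-rich elements and brings CCR4-NOT to them, was at the edge of detection. It had 8 counts in slimming and 6 in control oocytes, 0.382 and 0.296 CPM, where a count of 0 would allow up to 0.143 and 0.148 CPM (3 counts). The reason for this low count was not tested, and it does not show that oocytes lack the mRNA. The log2 ratio was 0.31, with an interval from -1.38 to 2.14, so that no difference was detectable at this depth. Of its relatives, Zfp36l1 had 2 and 1 counts and Zfp36 had 27 and 33, so that Zfp36l2 held 22.9% (10.4 to 40.1) and 15.4% (5.86 to 30.5) of the counts of the pair with Zfp36.

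Among the CCR4-NOT subunits the catalytic pairs each leaned on 1 copy. Cnot7 and Cnot8 encode the interchangeable CAF1 deadenylases. Cnot7 (ENSMUSG00000031601, chr8:40492540-40515847, minus strand) had 10733 and 9871 counts, 512 CPM in slimming and 488 CPM in control oocytes, and the libraries were close to equal (log2 0.04, interval 0.00047 to 0.08, and -0.0055 with upper-quartile scaling). Cnot8 (ENSMUSG00000020515, chr11:58104153-58118594, plus strand) had 2750 and 2383 counts, 131 and 118 CPM, slightly higher in the slimming library (log2 0.13, interval 0.05 to 0.21, and 0.08 with the length trend removed). Of the counts of this pair, Cnot7 held 79.6% in the slimming (exact 95% interval 78.9 to 80.3) and 80.6% in the control library (79.8 to 81.3). Per kilobase Cnot7 stood 2.75 and 2.92 times above Cnot8. Over 760 bases Cnot8 is 97.8% identical to the processed pseudogene Gm18860, which was not analysed here, and its annotated 3′ end is incomplete. The part of either in these shares was not tested.

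Cnot6l and Cnot6 encode the CCR4 deadenylases, the other catalytic site of the complex. Cnot6l (ENSMUSG00000034724, chr5:96070333-96164171, minus strand) had 9972 and 11631 counts, 476 CPM in slimming and 575 CPM in control oocytes, the slimming library being 1.23-fold lower (log2 -0.30, interval -0.34 to -0.26). Among the 453 genes of like level (300 to 1000 CPM), 27.6% lay at least as far from their median. Its transcript is long, at 8564 bases, and with the length trend removed the log2 ratio was -0.19. Cnot6 had 403 and 601 counts, 19.2 and 29.7 CPM, and was 1.58-fold lower in the slimming library (log2 -0.66, interval -0.84 to -0.47). Cnot6l held 96.1% of the counts of this pair in the slimming (95.7 to 96.5) and 95.1% in the control library (94.7 to 95.5), and stood 16.6 and 13.0 times above Cnot6 per kilobase. Both CCR4 genes were thus lower in the slimming library, while both CAF1 genes were near equal or slightly higher. Both CCR4 transcripts (5736 bases for Cnot6) belong to the longest length group, with a median log2 ratio of -0.09. Cnot7 and Cnot8 belong to shorter groups, with medians of -0.0053 and 0.05. No value with the length trend removed is given for Cnot6. The 5th percentile of genes between 10 and 30 CPM was -0.72, so Cnot6 was not outside their spread. The part of length in this contrast was not tested. Summed, the 4 catalytic genes had 1139 and 1210 CPM (log2 -0.12, interval -0.14 to -0.09).

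Cnot1 (ENSMUSG00000036550, chr8:95719451-95807464, minus strand), the scaffold on which all subunits assemble, had only 14 counts in slimming and 32 in control oocytes. At 0.668 and 1.58 CPM it lay far under the catalytic subunits, also per kilobase, with 0.0799 RPKM against 55.6 RPKM for Cnot6l in the slimming library. The slimming library was 2.37-fold lower (log2 -1.25, interval -2.29 to -0.33). Among 5296 genes with 1 to 10 CPM in their higher library, 16.5% were lower and 16.7% higher by 2-fold or more, and 26.5% and 27.4% by 1.5-fold, so a gap of this size was common at such levels. Over 903 bases the Cnot1 transcript is 99.8% identical to the processed pseudogene Gm6158, which was not analysed here. How the authors treated reads with several matches is not given in the sources used here, and its part in the low count was not tested.

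The other CCR4-NOT subunits, from a list of 8, had 7 expressed members, of which 5 lay under and 2 over the median expressed gene, with a median log2 ratio of -0.27. None was 2-fold apart. By 1.5-fold or more, 2 of 7 were lower and 1 of 7 higher, against 7.16% and 10.3% of expressed genes. Cnot3, a subunit of the NOT module, was both the most abundant per kilobase (66.1 RPKM in slimming, 113 RPKM in control oocytes) and the farthest apart, 1.74-fold lower in the slimming library with 3908 against 6438 counts (log2 -0.80, interval -0.86 to -0.74). The other one at least 1.5-fold lower was Cnot6. Cnot9, which docks adaptors onto the complex and is named after its value was seen, went the other way with 500 and 311 counts (log2 0.60, interval 0.40 to 0.81). Cnot3 shares 6.07% of its exon bases with Leng1 on the opposite strand, and Cnot9 shares 3.50% with Usp37. The use of strand in counting is not given in the sources used here.

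Pabpc1l (ENSMUSG00000054582, chr2:164025450-164050538, plus strand) encodes the embryonic poly(A)-binding protein, which coats and protects the tails that CCR4-NOT removes. It had 601 and 524 counts, 28.7 CPM in slimming and 25.9 CPM in control oocytes, and its interval included equal levels (log2 0.12, interval -0.05 to 0.29). The somatic form Pabpc1 had 18 and 7 counts, so that Pabpc1l held 97.1% of the counts of the pair in the slimming (95.4 to 98.3) and 98.7% in the control library (97.3 to 99.5). Against Pabpc4, with 145 and 151 counts, Pabpc1l held 80.6% (77.5 to 83.3) and 77.6% (74.3 to 80.7). These intervals cover counting error only. Transcripts similar to Pabpc1 were not searched for, and the part of reads with several matches in its low count was not tested. The nuclear protein Pabpn1 was the most abundant of the list, at 1115 and 1112 RPKM (log2 -0.03), although 21.5% of its exon bases also belong to Gm20521 on the same strand. Paip2b, an inhibitor of poly(A)-binding protein, was 1.55-fold higher in the slimming library (log2 0.63, interval 0.52 to 0.75). It was the 1 of 4 expressed members of that list past 1.5-fold, where 10.3% of expressed genes were as much higher.

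The decapping pair was uneven in level. Dcp2 is the enzyme that removes the cap, and Dcp1a its activator. Dcp1a (ENSMUSG00000021962, chr14:30479535-30527063, plus strand) had 18240 and 18204 counts, 871 CPM in slimming and 899 CPM in control oocytes, near equal (log2 -0.08, interval -0.11 to -0.05, and -0.0020 with the length trend removed). Dcp2 (ENSMUSG00000024472, chromosome 18) had 599 and 476 counts, 28.6 and 23.5 CPM, somewhat higher in the slimming library (log2 0.25, interval 0.07 to 0.43). Of the 2123 genes between 10 and 30 CPM, 64.1% lay at least as far from their median as Dcp2. Per kilobase the activator was above the enzyme in both libraries, at 156 and 161 RPKM against 3.32 and 2.73 RPKM. Dcp1b, the copy of Dcp1a, had 61 and 32 counts, and Dcp1a held 99.7% and 99.8% of the pair. Over 904 bases Dcp1a is 92.3% identical to an annotated processed pseudogene, which was not analysed here.

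The other decapping factors had 12 of 17 members expressed, 6 over and 6 under the median expressed gene, with a median log2 ratio of 0.10 (0.012 with the length trend removed). None was 2-fold apart. By 1.5-fold or more, 1 of 12 was higher and 0 lower, against 10.3% and 7.16% of expressed genes. Edc4, the scaffold that joins Dcp1a and Dcp2, led the list at 288 and 280 RPKM and was equal between the libraries (log2 0.0054). Lsm4, of the ring that binds shortened tails, had 724 and 407 counts and was 1.68-fold higher in the slimming library (log2 0.75, interval 0.57 to 0.93). Its transcript of 925 bases belongs to the shortest length group, with a median log2 ratio of 0.18. Edc4 shares 8.33% of its exon bases with Nrn1l on the same strand.

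Xrn1 (ENSMUSG00000032410, chr9:95954760-96057803, plus strand), the cytoplasmic exonuclease that digests decapped mRNA, had 50 counts in slimming and 26 in control oocytes, 2.39 and 1.28 CPM. The slimming library was 1.80-fold higher (log2 0.85, interval 0.15 to 1.61), at a level where 27.4% of genes were at least 1.5-fold higher. Why the count of Xrn1 was low was not tested. Its nuclear relative Xrn2 had 822 and 944 counts, and Xrn1 held 5.73% of the pair in the slimming (4.29 to 7.49) and 2.68% in the control library (1.76 to 3.90). On the opposite strand the antisense genes C78334 and Gm16794 share 3.25% and 0.990% of the exon bases of Xrn1. Among the members, Cnot7 (4.24%, with Zdhhc2), Zfp36l2 (2.98%) and Cnot1 (0.769%) also share exon bases with a gene of the opposite strand.

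The 3 members below 10 CPM had transcripts of 3530 to 10256 bases, within and above the 1486 to 8616 bases of the 7 expressed members.

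**Figure D3:**
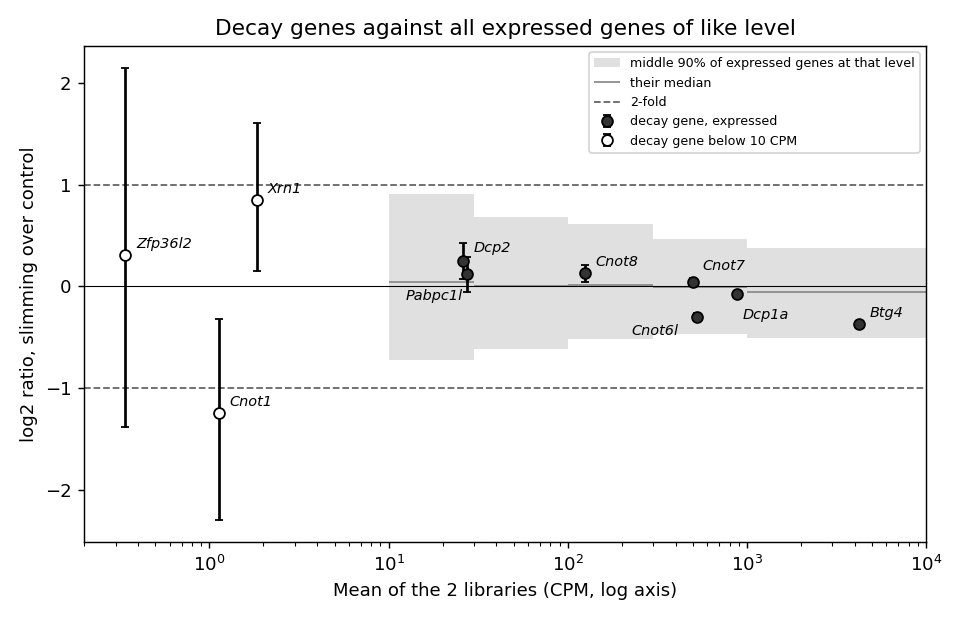
log2 ratio of slimming over control for each of the 10 genes against its mean level in CPM (log axis), with exact 95% counting intervals, over grey bands that hold the middle 90% of expressed genes of like level. All 7 expressed members (filled points) lie inside the grey bands, and the 3 below 10 CPM (open points) have wide intervals.

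Beyond these steps, 100 other genes of mRNA decay and tail metabolism were listed, 97 were in the table and 63 were expressed. Of the 63, 29 lay over and 34 under the median expressed gene, 0 were 2-fold apart, 4 were higher and 2 lower by 1.5-fold or more, and the median log2 ratio was -0.03. Over all expressed genes the shares were 2.73% higher and 1.94% lower at 2-fold, and 10.3% and 7.16% at 1.5-fold. For the short lists below, a count of 0 is not far from these shares.

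Of 8 other deadenylases, 6 were expressed. Angel2 led them at 263 RPKM in slimming and 321 RPKM in control oocytes (log2 -0.32, interval -0.34 to -0.29). The subunits of the PAN2-PAN3 deadenylase, which starts tail shortening in somatic cells, went in opposite directions. Pan2, the catalytic subunit, had 1967 and 1329 counts (log2 0.48, interval 0.38 to 0.59) and Pan3, named after its value was seen, 16226 and 20569 counts (log2 -0.42, interval -0.45 to -0.39). None of the 6 was 1.5-fold apart, against 10.3% of expressed genes higher and 7.16% lower.

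RNA-binding adaptors of CCR4-NOT had 9 of 16 members expressed, 6 of them under the median expressed gene, with a median log2 ratio of -0.15. Past 1.5-fold were 0 of 9, against 10.3% of expressed genes higher and 7.16% lower. Nanos2 led per kilobase at 86.8 and 88.6 RPKM (log2 -0.06), but 49.0% of its exon bases also lie in the antisense gene Gm45058, so its count is uncertain. Rc3h1, which encodes the stem-loop binding protein Roquin, was the farthest apart, with 624 and 861 counts (log2 -0.54, interval -0.70 to -0.39).

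Among exonucleases, exosome subunits and associated factors, 9 of 18 were expressed, with a median log2 ratio of 0.10 (0.0028 with the length trend removed). Past 1.5-fold were 0 of 9, against 10.3% of expressed genes higher and 7.16% lower. Wdr61, itself neither an exonuclease nor an exosome subunit, led the list at 303 and 276 RPKM. It shares 33.9% of its exon bases with Dnaja4 on the opposite strand. Dis3l2, which digests uridylated RNA, was farthest apart (log2 0.42, interval 0.24 to 0.60). Of the enzymes that add tails, Tent4a, a non-canonical poly(A) polymerase, led at 295 and 227 RPKM (24684 and 18339 counts, log2 0.35), while its close relative Tent4b had 313 and 440 counts (log2 -0.57, interval -0.79 to -0.36). The uridylyltransferases Tut4 and Tut7, named after their values were seen, had 1 and 4 counts and 33 and 36 counts. Of the nonsense-mediated decay genes, 7 of 10 were expressed. Upf1, the central helicase, led at 76.1 and 92.0 RPKM (log2 -0.30), and Upf3b was the farthest apart of all 63 expressed genes, 1.97-fold higher in the slimming library with 466 against 223 counts (log2 0.98, interval 0.75 to 1.22).

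**Figure D4:**
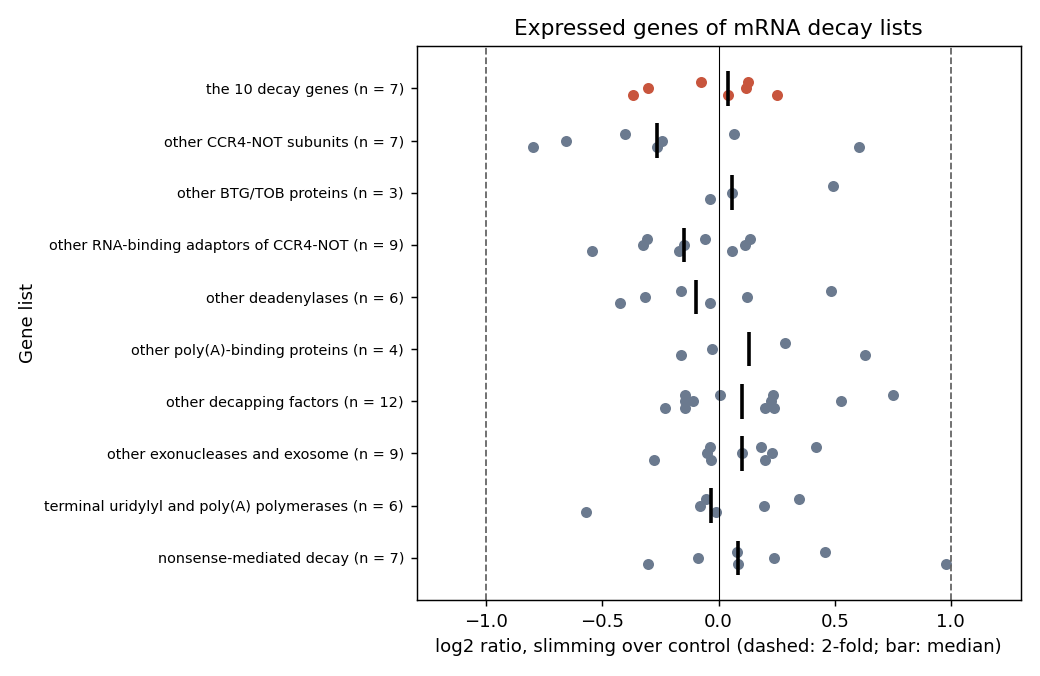
log2 ratio of slimming over control for each expressed gene, by list, with a bar at the list's median and dashed lines at 2-fold. All points lie between the dashed lines, and the 10 decay genes (7 expressed) span -0.37 to 0.25.

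In the authors' deposited table, 4 of the 7 expressed members were marked as passing a p-value cut, 2 higher (Cnot7, Cnot8) and 2 lower (Btg4, Cnot6l), where 57.1% of expressed genes were marked. It rests on reads alone, with no replicate behind it.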

How the data were processed

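The authors deposited raw read counts per Ensembl gene for 1 slimming and 1 control library, with the columns named per the file headers. Build mm9 comes from the submitters' processing notes. Which aligner and counter were run, and how strand and multi-mapped reads were handled, is not given in the sources used here. Per the labels' protocols, cDNA was primed with an oligo(dT) stretch of 24 bases and amplified for 18 plus 14 cycles. The labels name no molecular identifiers. The log2 ratios, the score (a z-score) and the p-values that the authors deposited compare the reads of the libraries. Of these, only the marks based on the p-value were used. Blank entries in 18210 rows were read as no count.

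Symbols, lengths, overlaps and 3′ ends came from GENCODE vM21 (GRCm38), and 16913 genes with counts had a symbol. Older names were matched through RefSeq synonyms. RPKM is CPM per kilobase of the longest coding transcript. Because priming starts at the tail, reads need not cover a transcript evenly. Libraries were scaled by TMM (edgeR 4.0.16, R 4.3.3), 0.5 was added to each count, and 95% Clopper-Pearson intervals were taken. Similar transcripts were found with BLAST 2.17.0 (at least 90% identity over 200 bases). Python 3.11.15, pandas 2.3.3, scipy 1.17.1 and statsmodels 0.14.6 were used. The calls and intervals were tested on simulated data.

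The genes and lists were chosen with earlier results of these data known. Named were all 10 genes, their paralogues, and from each other list the most abundant per kilobase, any at least 2-fold apart and the one with the largest absolute log2 ratio, and from each marker list the most abundant. With 2 libraries no likeness of pattern across samples could be computed. Alternatives were other scalings (DESeq2 1.42.0 among them), filters, an added count of 5 and a removed length trend.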

Additional observations from a re-analysis of the deposited data

How the results depend on the processing

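No paired analysis was possible because each group has 1 library, and for the same reason no library could be left out. The members 2-fold or 1.5-fold apart numbered 0 in each direction under the 3 other scalings, an added count of 5, the removed length trend and the 30 CPM filter. With a 1 CPM filter or none, Cnot1 and Xrn1 enter: 1 member was then lower by 2-fold or more, and 1 lower and 1 higher by 1.5-fold or more. The members' median log2 ratio was -0.0055 with upper-quartile scaling and -0.0779 with the 30 CPM filter, on the other side of 0 from the main value. Cnot7 also changed sign with upper-quartile scaling (-0.0055). With the length trend removed Dcp1a was at -0.0020, so that its counting interval, shifted by as much, would include equal levels, and the medians of the decapping list (0.012) and the exonuclease and exosome list (0.0028) came close to 0. That of the poly(A)-binding protein list went from 0.13 to -0.04 and that of nonsense-mediated decay from 0.08 to 0.22. Of the other 63 genes 1, Upf3b, was past 2-fold higher by total count. Looser filters also let in genes of these lists below 10 CPM, up to 94 genes with counts when no filter was set. With the 1 CPM filter 3 were then 2-fold or more higher and 1 lower, and with no filter 6 and 3. Among all genes with 1 to 10 CPM in their higher library, 16.7% were 2-fold or more higher and 16.5% lower. Scalings moved the median of all expressed genes between -0.03 and 0.05. The ratios of Zfp36l2, Cnot1 and Xrn1 rest on few counts, 6 to 50 per library.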
